A study of Mus musculus with 20 samples.

Results

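Cytosolic ribosomal protein genes encode the protein part of the ribosome outside the mitochondria. They were followed here in salivary glands of untreated C57BL/6J mice aged 4, 8, 12 or 16 weeks. Members were all genes named as proteins of the large subunit (Rpl symbols, with Rplp0 and Rplp2) or the small subunit (Rps symbols, with Rpsa). Kinases of the Rps6k family and pseudogenes were left out, and a member had to have a probe set assigned to a single symbol. This gave 48 of the 18194 genes measured, 26 of the large and 22 of the small subunit. A further 28 symbols of the same form were found only on probe sets shared by several symbols and were not used as members, among them Rpl3, Rpl5, Rpl10, Rpl32, Rplp1, Rps12, Rps13 and Rps23. Rps4l, listed as a transcribed pseudogene, was left out as well, with signals between 3.08 and 4.84.

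Each age had 5 mice, 1 array per mouse, and RNA came from glands freed of lymph nodes. The strain served the study as the healthy control of a model of Sjögren's syndrome, and the 4 groups shared strain, housing and the absence of treatment and differed in age. Values were log2 signals of Affymetrix mouse arrays, so a difference of 1 stands for a doubling of signal. The number of arrays limited the precision.

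The ribosome joins amino acids in the order set by a messenger RNA. The small subunit reads the message and the large subunit forms the peptide bond. Ribosomal proteins are needed in roughly equal numbers, and most of their mRNAs start with a run of pyrimidines, the 5' terminal oligopyrimidine (TOP) motif, through which mTOR signaling and LARP1 control their translation together. Acinar cells of salivary glands secrete large amounts of protein and are rich in ribosomes.

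Markers of the tissue and the sex were examined before the results. The acinar genes Aqp5 (8.19 to 10.9), Smgc (9.45 to 12.0) and Bhlha15 (8.51 to 11.1) and the kallikrein Klk1 of the ducts (10.9 to 13.8) were bright on all 20 arrays. Others of the 10 measured acinar genes varied between mice, Amy1 from 3.81 to 12.4, Bpifa2 from 6.28 to 13.3, Dnase1 from 5.88 to 13.01 and Dcpp1 from 3.84 to 8.89. The skeletal muscle genes Acta1 (3.03 to 4.27) and Mylpf (3.20 to 4.08) were dim on all of them, while Ckm lay between 5.19 and 6.41. All mice were labelled male, and the sex-linked genes went against that label. Xist, the RNA that silences 1 X chromosome in females, lay between 8.96 and 10.7 and never under percentile 96.3 of an array. The Y-linked genes Eif2s3y (2.07 to 2.97) and Kdm5d (3.65 to 4.75) were dim throughout, and Uty lay between 4.58 and 5.76. Samples of all ages were alike in this, so the groups are called by age alone. Correlations between arrays ran from 0.792 to 0.983, so no pair of arrays was identical.

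Start sites were searched for runs of pyrimidines. Promoters of 43 of the 48 members were matched in RefSeq (assembly GRCm38.p6), in 51 windows of 250 bases before to 50 bases after the annotated start. A run of at least 7 C or T within 20 bases of the start was present in 28 of the 51 windows, or 54.9%, against 24.31% of all 32851 promoter windows. The letters CTTTCC, searched on the gene strand within 20 bases of the start and counted also where they lay inside such a run, were present in 13.73% of member windows and 1.948% of all. The letters CCGGAAG, searched on either strand of the whole window and free to overlap the other motifs, were present in 41.18% against 8.858%. TATAAA on the gene strand was present in 9.804% against 8.319%. These matches describe letters in the windows and are no evidence of a bound factor.

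Windows of called members are printed, each holding 15 bases before the annotated start and 15 from it, on the gene strand. Rpl7 was called as well, but its promoter was not among those matched. Rps27l, Rps3a1, Rpl6, Rps16 and Rpsa are shown because they were called in a comparison, and Rpl35 and Rps18 as examples of long runs. Capitals mark the longest run of at least 5 C or T.
Rps27l (chr9:66946071-66946100, plus strand): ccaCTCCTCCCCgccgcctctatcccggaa
Rps3a1 (chr3:86142654-86142683, minus strand): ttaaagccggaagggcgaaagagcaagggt
Rpl6 (chr5:121204486-121204515, plus strand): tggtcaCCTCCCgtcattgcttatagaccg
Rps16 (chr7:28350674-28350703, plus strand): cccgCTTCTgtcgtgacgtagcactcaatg
Rpsa (chr9:120127751-120127780, plus strand): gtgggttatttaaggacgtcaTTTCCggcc
Rpl35 (chr2:39005117-39005146, minus strand): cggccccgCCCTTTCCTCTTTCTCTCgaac
Rps18 (chr17:33955651-33955680, minus strand): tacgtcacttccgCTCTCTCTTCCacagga
The run of Rps27l lay before the annotated start, and the window of Rps3a1 held no run of this length.

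Probe sets of the members were among the brightest of the arrays. Of the 48, 39 were in the top 10% of genes by mean signal and 29 in the top 1%. The brightest were those of Rps29 (mean 12.0), Rps28 (11.9), Rpl13a (11.5), Rpl37a (11.3) and Rpl41 (11.3), and 5 lay under the median of all genes, Rps27 (5.46), Rpl14 (5.30), Rpl3l (4.92), Rpl39l (3.64) and Rps16 (2.97). Probe sets bind with different strength, so these signals do not rank the amounts of the mRNAs. For 14 members the probe set used was of the kind _x_at and for 2 of the kind _s_at, whose probes also match related sequences. Ribosomal protein genes have many processed pseudogenes, and signals of these 16 members may include such copies.

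The mean over the 48 genes varied widely between mice of an age. At 4 weeks it was 9.30, 9.30, 9.80, 10.1 and 10.3 in the 5 mice, and at 8 weeks 9.83, 9.35, 8.61, 9.40 and 8.06. At 12 weeks the mice had 9.87, 9.34, 9.77, 9.63 and 9.57, and at 16 weeks 9.97, 8.19, 9.20, 7.87 and 8.46. The means were 9.76 ± 0.458, 9.05 ± 0.706, 9.64 ± 0.204 and 8.74 ± 0.848 (SD, n = 5 each), so the mice at 12 weeks were close together while those at 8 and 16 weeks were spread over more than 1.5 log2 units. The lowest values came from replicates 3 and 5 at 8 weeks and replicates 2, 4 and 5 at 16 weeks. In glands measured in bulk, fewer cells of a type and less RNA per cell cannot be told apart.

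**Figure D1:**
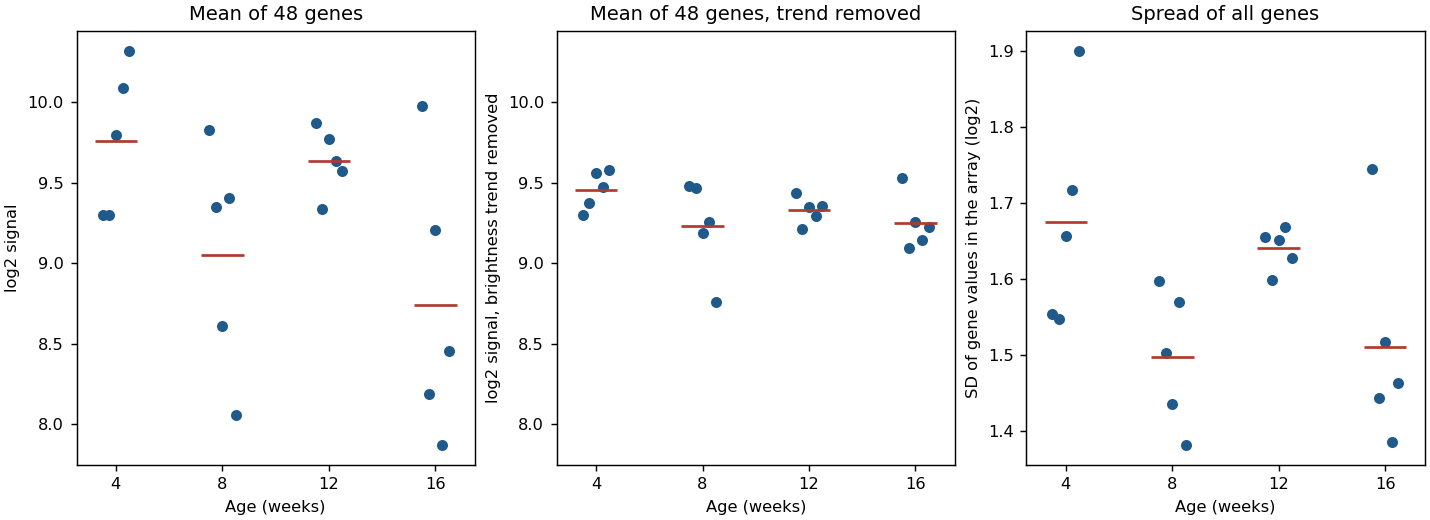
Each point is 1 mouse and each red line the mean of 5 mice at 4, 8, 12 and 16 weeks. Left, mean log2 signal of the 48 ribosomal protein genes; middle, the same after the brightness trend of each array was removed; right, SD of the log2 signals of all 18194 genes within an array. The same 5 arrays at 8 and 16 weeks are low on the left and under 1.5 on the right.

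These 5 arrays also had the narrowest spread of signal over all genes. The SD of gene values within an array lay between 1.38 and 1.46 on these 5 and above 1.5 on the other 15, up to 1.90. Between 43 and 46 of the 48 members lay under their own 20-array median on each of the 5 arrays, beside 41.1% to 67.3% of all genes. Arrays that were not narrow ran from 2 of 48, in replicate 4 at 4 weeks, to 38 in replicate 3 at 16 weeks, with 37 in replicates 1 and 2 at 4 weeks. Replicate 1 at 16 weeks had 3 of 48 under the median. The other 153 genes in the top 1% of mean signal moved in the same way, with means of 10.8 ± 0.324, 10.4 ± 0.462, 10.9 ± 0.141 and 10.1 ± 0.613 at the 4 ages (SD, n = 5 each).

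Members were also fewer among the brightest genes of some arrays. Of the 48, 30 to 33 lay above the 99th percentile of their array at 4 weeks, 15 to 29 at 8 weeks, 28 to 30 at 12 weeks and 14 to 30 at 16 weeks, lowest in replicate 4 at 16 weeks. The median member lay between percentile 96.7, in replicate 5 at 8 weeks, and percentile 99.6. When the trend of each array on mean signal, fitted on genes that are no members, was subtracted, the means of the 48 genes came closer together, to 9.46 ± 0.118, 9.23 ± 0.293, 9.33 ± 0.0827 and 9.25 ± 0.167 (SD, n = 5 each). The log2 of the summed signals of acinar markers, of which 10 of 12 listed genes were measured, moved in the same direction in its median. The brightest genes weigh most in such a sum. It ran from 14.0 to 15.4 at 4 weeks, 13.5 to 14.7 at 8, 14.1 to 14.7 at 12 and 12.6 to 14.9 at 16 weeks. That of 6 fibroblast genes ran from 10.5 to 11.3, 9.09 to 10.2, 9.71 to 10.7 and 8.93 to 11.1. Myoepithelial and basal genes were also lower at 8 weeks in their median (11.1 to 10.9). All other tissue and cell type lists were higher at 8 weeks than at 4. Medians of 7 duct genes were 13.0, 13.2, 13.8 and 13.1 at the 4 ages. From 4 to 8 weeks those of B and plasma cell genes went from 7.98 to 8.34, and of T cell genes from 7.63 to 8.05. The difference in signal between the 3' and 5' control probe sets of Gapdh, a sign of RNA quality, was 2.37 ± 0.439, 2.43 ± 0.968, 2.69 ± 0.233 and 2.40 ± 0.455 (SD, n = 5 each). That of Actb was 2.51 ± 0.646, 2.90 ± 1.26, 3.51 ± 0.537 and 3.04 ± 1.00. The part of these measures in the members' values was not tested.

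**Figure D2:**
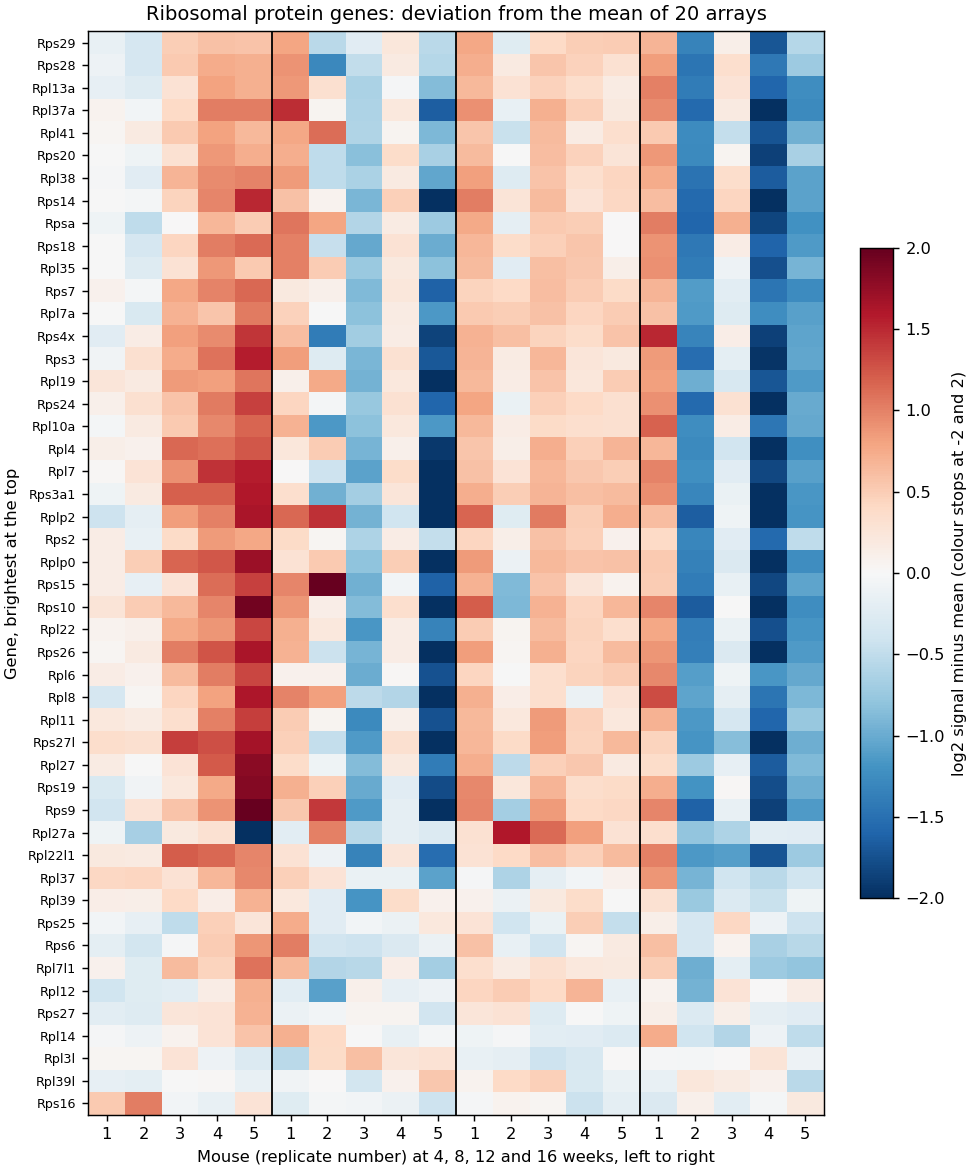
Rows are the 48 genes, brightest at the top, and columns the 20 mice, grouped by age from 4 weeks at the left to 16 weeks at the right. Color gives the log2 signal minus the mean of the gene over 20 arrays, and blue columns at 8 weeks (replicates 3 and 5) and 16 weeks (replicates 2, 4 and 5) run through nearly all but the dimmest rows.

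From 4 to 8 weeks, a single member passed the test. Rps27l, a paralog of Rps27 that p53 induces, fell by 1.63 on the log2 scale (standard error, SE, 0.47, limma adjusted p = 0.0414 over all genes). The probe set used for Rps27l is of the kind _x_at, so its signal may include related sequences. This 1 lower member of 48 stands beside 4.13% of all genes lower and 3.26% higher, 7.39% in all. Its signal was 9.91, 9.88, 10.9, 10.8 and 11.2 in the mice at 4 weeks and 10.03, 9.08, 8.43, 9.88 and 7.20 at 8 weeks. The groups overlapped, and the lowest value was that of replicate 5 at 8 weeks. The call was lost without replicate 3, 4 or 5 at 4 weeks (limma adjusted p = 0.064, 0.084 and 0.137), without replicate 2, 3 or 5 at 8 weeks (adjusted p = 0.058, 0.110 and 0.124) and, just past the threshold, without any of 5 mice at the other ages (replicate 1, 2, 4 or 5 at 12 weeks, replicate 3 at 16 weeks).

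Of the 48 members, 42 had a negative difference from 4 to 8 weeks, against 45.2% of all genes, and their median was -0.69, against 0.05 over all genes. At an unadjusted p under 0.05 there were 20 lower members and 0 higher, beside 15.5% and 16.9% of all genes. The genes of like mean signal had a median of -0.45, so other genes as bright also had lower signals at 8 weeks. Each member's difference minus that of its like genes had a median of -0.34, negative in 39 of 48. Both subunits were alike, with medians of -0.69 in the large and -0.77 in the small subunit. The 5 members under the median of signal had a median of 0.02. With cyclic loess between arrays, which removes differences by brightness, the median of the 48 was -0.22 and 6 passed, 2 higher and 4 lower, beside 7.16% of all genes. Without the 5 narrow arrays it was -0.24, and with the SD of each array as a covariate it turned to 0.14.

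Relative to genes of like mean signal, 6 of 48 members passed the test from 4 to 8 weeks, 5 lower and 1 higher, beside 7.16% of all genes (5.07% lower, 2.08% higher). At an unadjusted p under 0.05 there were 19 on this scale, beside 29.8%. The relative differences were -1.05 for Rps27l, -0.90 for Rpl7, -0.88 for Rps3a1, -0.66 for Rps16 and -0.56 for Rpl6 (limma adjusted p = 0.0233, 0.0208, 0.0393, 0.0355 and 0.0489). Rpl7 and Rpl6 are proteins of the large subunit, and Rps3a1 and Rps16 of the small one. The probe set of Rps16 lay at percentile 4.69 of mean signal and was not shown to be above background, so its difference may not be one of Rps16 mRNA. Rpsa, the laminin receptor precursor that is part of the small subunit, was higher by 0.67 (limma adjusted p = 0.0425). On the deposited scale it differed by 0.02, so it was higher in relation to genes as bright and not in signal. Against the median of its 25 like genes Rpsa was higher by less, 0.40. The other 153 genes in the top 1% of mean signal had a median relative difference of 0.15, so the trend left the brightest genes too high. The part of this offset in the call of Rpsa was not tested. With a wider trend, 6 members passed again, but 3 of them were higher and 3 lower. The share of all genes with that trend was not counted. Without the 5 narrow arrays 0 of 48 passed on either scale, where 0.0165% of all genes passed on the deposited scale, and each member's difference minus like genes had a median of -0.04.

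The mice behind these calls differed in width. Rpl7 gave signals of 10.3, 10.6, 11.2, 11.7 and 11.9 at 4 weeks and 10.3, 9.88, 9.23, 10.7 and 7.99 at 8 weeks. There 4 of 5 mice lay under all mice of 4 weeks, replicate 1 only just (10.3068 against 10.3165). Rps3a1 gave 10.2, 10.5, 11.5, 11.5 and 11.9 at 4 weeks and 10.6, 9.32, 9.59, 10.5 and 7.85 at 8 weeks. In both genes replicate 5 at 8 weeks was lowest. Rpl6 gave 9.91, 9.84, 10.4, 10.8 and 11.1 at 4 weeks and 9.84, 9.83, 8.77, 9.77 and 8.01 at 8 weeks. It was the 1 member whose 2 groups did not overlap, beside 1.96% of all genes, and the nearest mice of the 2 ages were almost equal. None was higher at 8 weeks without overlap, beside 3.79%. Rps16, a dim probe set, gave 3.49, 4.00, 2.91, 2.82 and 3.25 at 4 weeks and 2.74, 2.94, 2.91, 2.86 and 2.56 at 8 weeks. Its values were spread more at 4 weeks than at any other age.

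The calls relative to like genes also depended on single mice. That of Rpl7 was lost without replicate 4 or 5 at 4 weeks or replicate 5 at 8 weeks (limma adjusted p = 0.056, 0.069 and 0.056), and that of Rps27l without replicate 4 or 5 at 4 weeks or replicate 3 or 5 at 8 weeks (adjusted p = 0.053, 0.073, 0.057 and 0.062). Rps16 was lost without replicate 2 or 5 at 4 weeks or 3 or 5 at 8 weeks (adjusted p up to 0.110), and Rps3a1 without replicate 3, 4 or 5 at 4 weeks or 2, 3 or 5 at 8 weeks (up to 0.117). Rpl6 passed only without replicate 1 or 2 at 4 weeks, replicate 2 or 4 at 8 weeks or replicate 1 at 16 weeks (adjusted p with a mouse left out 0.0277 to 0.160). Rpsa passed without replicate 1 at 4 weeks, replicate 4 at 8 weeks, replicate 2 at 12 weeks or any mouse of 16 weeks (adjusted p 0.0202 to 0.146). Without replicate 5 at 4 or at 8 weeks 0 of 48 members passed on this scale, without replicate 4 at 4 weeks or 3 at 8 weeks 1, and without replicate 3 at 4 weeks 3. The share of all genes on this scale was not counted in these 5 fits. On the deposited scale it was 0.0769%, 0.121%, 0.11%, 0.0934% and 5.88%. On the deposited scale the count of 1 became 9 without replicate 1 at 16 weeks (13.6% of all genes), 7 without replicate 1 (11.3%) and 5 without replicate 4 (14.8%) at 8 weeks, 3 without replicate 1 (9.73%) and 2 without replicate 2 (9.82%) at 4 weeks, and 2 without replicate 4 at 16 weeks (7.61%).

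**Figure D3:**
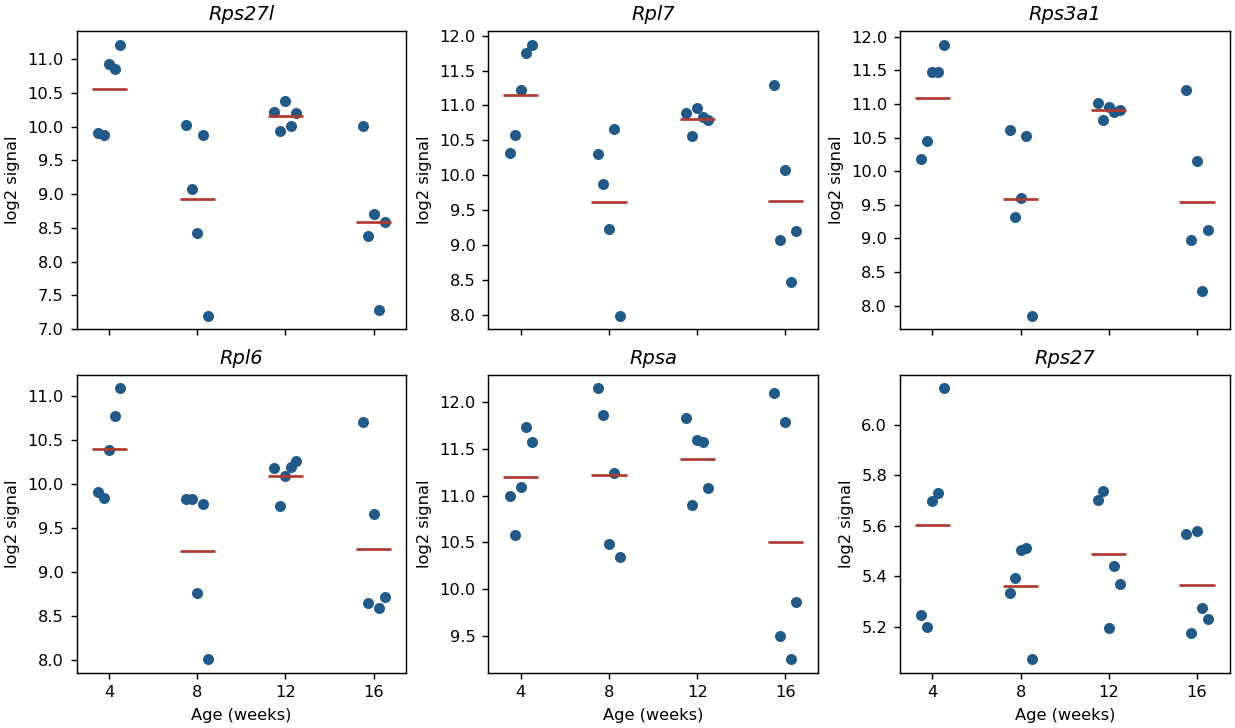
Log2 signal of 6 members in each mouse (points) at 4, 8, 12 and 16 weeks, with the mean of 5 mice as a red line; each panel has its own axis and none starts at 0. Rps27l, Rpl7, Rps3a1 and Rpl6 have their lowest mouse at 8 weeks or 16 weeks and a tight group at 12 weeks, Rpsa a wide group at 16 weeks, and Rps27 stays between 5.07 and 6.15.

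From 8 to 12 weeks, 0 of 48 members passed the test, beside 0.0055% of all genes by limma. At an unadjusted p under 0.05 there were 12 higher members and 1 lower, beside 11.1% and 7.74%. The median difference was 0.67, against -0.05 over all genes, and 4 of 48 were negative, beside 55.9% of all genes. Genes of like mean signal had a median of 0.48, and the members minus these had a median of 0.26, negative in 11. The median of the 48 was 0.11 with cyclic loess, 0.12 without the 5 narrow arrays and -0.11 with the SD of each array as a covariate. This comparison shares the mice of 8 weeks with the one before, so the low arrays of that age enter both. Rps3a1 had a difference of 1.32 (SE 0.50, limma adjusted p = 0.191), Rps27l of 1.23 (adjusted p = 0.191) and Rpl7 of 1.20 (adjusted p = 0.201). Rps3a1 was higher in all 5 mice at 12 weeks, from 10.8 to 11.01, than in all 5 at 8 weeks, the highest of which had 10.6. Rps7, also of the small subunit and named after its values were seen, was the other member without overlap, with 11.3 to 11.5 at 12 weeks against 9.31 to 11.2 at 8. Groups without overlap and higher at 12 weeks were found in 3.39% of all genes, and lower in 1.95%, among them 0 members. Relative to like genes 0 members passed, beside 0.0385% of genes, and 9 had an unadjusted p under 0.05, beside 16.8%.

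From 12 to 16 weeks, 0 of 48 passed, beside 0.192% of all genes (0.187% lower). At an unadjusted p under 0.05 there were 32 lower members and 0 higher, beside 9.99% and 4.18%. The median difference was -1.01, against -0.02 over all genes, and 46 of 48 were negative, beside 53.2% of all genes. Bright genes that are no members had lower signals as well, with a median of -0.88 among genes of like mean signal, so the members minus these had a median of -0.18, negative in 40 of 48. With the trend on mean signal subtracted instead, the median of the 48 was -0.016, negative in 27. On that scale the other 153 genes in the top 1% of mean signal had a median of 0.15. Rps27l had the lowest difference, of -1.56 (SE 0.47, limma adjusted p = 0.166), followed by the stalk proteins Rplp2 (-1.56, adjusted p = 0.295) and Rplp0 (-1.47, adjusted p = 0.272). In Rps27l the mice at 16 weeks had 10.01, 8.37, 8.70, 7.29 and 8.58, and those at 12 weeks 10.2, 9.94, 10.4, 10.01 and 10.2. Here only replicate 1 at 16 weeks reached the range of 12 weeks. No member was without overlap in this period, beside 1.86% of genes lower at 16 weeks and 0.791% higher.

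This period depended on replicate 1 at 16 weeks. Without that mouse, 25 of 48 members passed the test from 12 to 16 weeks, beside 5.69% of all genes, and with array weights, which give less weight to arrays that stray from their group, 21 passed, all lower, beside 6.4%. Without the 5 narrow arrays, 3 of which are from 16 weeks, 0 members and 0 of all genes passed, and the median difference was -0.03. With cyclic loess the median was -0.01, and with the SD of each array as a covariate -0.28. Relative to like genes 0 of 48 passed, beside 0.225% of genes, and 6 had an unadjusted p under 0.05, beside 13.2%.

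Across the whole study, from 4 to 16 weeks, 1 member passed the test. Rps27l fell by 1.97 (SE 0.47, limma adjusted p = 0.0283), beside 3.12% of all genes lower and 0.506% higher, 3.63% in all. All but replicate 1 at 16 weeks were under every mouse of 4 weeks, the lowest of which had 9.88. The call was lost without replicate 3, 4 or 5 at 4 weeks (limma adjusted p = 0.058, 0.083 and 0.098) or replicate 2, 4 or 5 at 16 weeks (adjusted p = 0.081, 0.103 and 0.057), and without the 5 narrow arrays (-1.20, adjusted p = 0.416, where 0.0605% of all genes passed). Relative to like genes it fell by 1.09 (limma adjusted p = 0.0213), the 1 member that passed on that scale, beside 4.34% of all genes (3.01% lower, 1.34% higher). That call was lost without replicate 4 or 5 at 4 weeks or replicate 3 or 4 at 16 weeks (adjusted p = 0.054, 0.062, 0.055 and 0.074). Relative calls became 6 without replicate 1 at 16 weeks, 4 without replicate 5 at 8 weeks, and 2 without replicate 2 at 4 weeks or replicate 1 at 8 weeks. The share of all genes on the relative scale was not counted in these fits. On the deposited scale it was 16.5%, 4.47%, 6.62% and 4.01%, so these counts cannot be read as particular to the members.

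At an unadjusted p under 0.05, 36 members were lower and 0 higher from 4 to 16 weeks, beside 15.2% and 9.01% of all genes. The median was -1.11, against 0.01 over all genes, with -1.06 in the large and -1.13 in the small subunit, and 45 of 48 were negative, beside 49.1% of all genes. Groups were without overlap in 0 members, beside 1.65% of genes lower and 1.42% higher at 16 weeks. Genes of like mean signal had a median of -0.79 and the members minus these of -0.39, negative in 44. The median of the 48 was -0.19 with cyclic loess or with the SD of each array as a covariate, and -0.22 without the 5 narrow arrays. By size, Rplp0 (-1.91, limma adjusted p = 0.0607) came next to Rps27l, then Rps10 (-1.80, adjusted p = 0.0887), while the reference gene Rpl4 differed by -1.58 (adjusted p = 0.0513). The count of members called went from 1 to 37 without replicate 1 at 16 weeks (16.5% of all genes), to 10 without replicate 1 at 4 weeks (5.63%) or replicate 5 at 8 weeks (4.47%), to 8 without replicate 2 at 4 weeks (6.62%), to 2 without replicate 1 or 3 at 8 weeks (4.01% and 3.81%), and to 0 without replicate 3, 4 or 5 at 4 weeks or replicate 2, 4 or 5 at 16 weeks, where at most 1.89% of all genes passed.

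**Figure D4:**
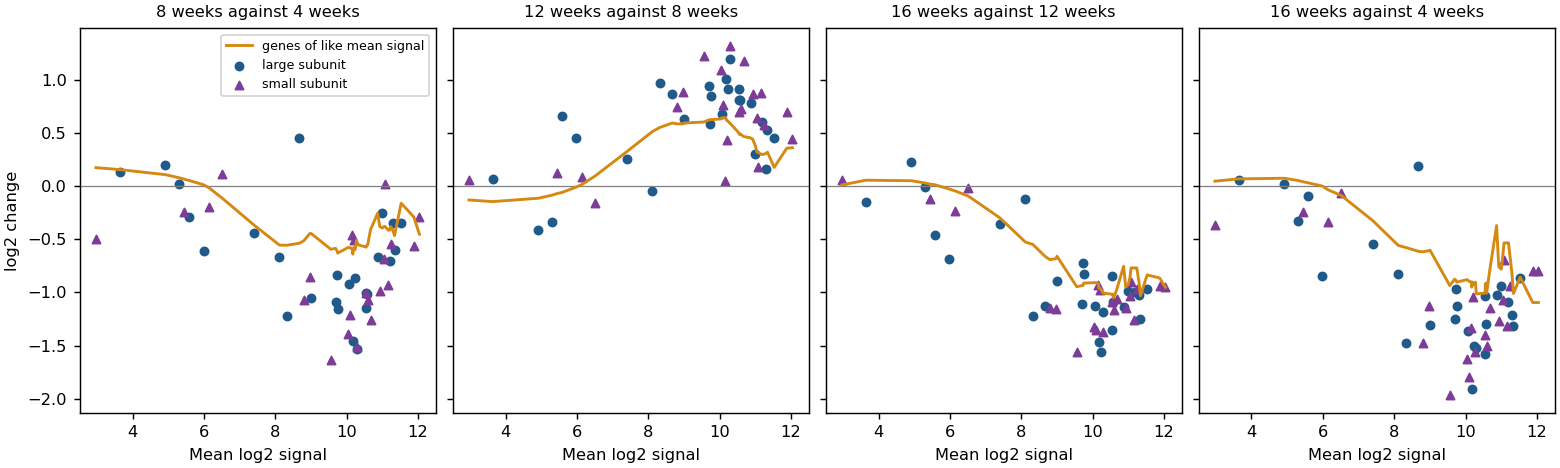
Each point is a member, with its mean log2 signal over 20 arrays on the horizontal and its log2 difference between 2 ages on the vertical axis; circles are the large and triangles the small subunit. The orange line gives the median of genes that are no members within 0.25 of each member's mean signal. In each panel nearly all bright members lie away from 0 on the same side as the line, and more of them lie beyond it than inside it.

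Among the proteins of the ribosomal stalk, which recruits elongation factors to the large subunit, Rplp0 and Rplp2 were measured. Rplp0 gave 10.3, 10.7, 11.3, 11.4 and 11.9 at 4 weeks and 10.7, 8.83, 9.88, 7.75 and 8.92 at 16 weeks, where replicate 1 alone was above the lowest mouse of 4 weeks. Rplp2 had the widest spread between mice of an age of all members, an SD of 1.15, and differed by -1.51 from 4 to 16 weeks (limma adjusted p = 0.162). At 8 weeks its signals ran from 7.54 to 11.7. Rpsa had signals from 9.25 to 12.1 at 16 weeks, and it differed by -0.70 from 4 to 16 weeks (SE 0.48, limma adjusted p = 0.380).

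Rps6, the small-subunit protein that S6 kinases phosphorylate downstream of mTOR, did not pass the test in any comparison. It gave 5.95, 5.78, 6.12, 6.65 and 7.03 at 4 weeks, 7.17, 5.76, 5.73, 5.86 and 6.03 at 8 weeks, 6.73, 6.00, 5.76, 6.19 and 6.33 at 12 weeks and 6.74, 5.81, 6.21, 5.49 and 5.59 at 16 weeks. Its difference from 4 to 16 weeks was -0.34 (SE 0.30, limma adjusted p = 0.499). This probe set was in the middle of the range of signals, and replicate 1 stood above the other mice at 8 weeks.

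Paralogs of ribosomal proteins replace the common form in some tissues. Of the 14 listed paralogs and partners, 11 were measured, and Rps27l was the 1 called from 4 to 8 weeks and from 4 to 16 weeks. Its partner Rps27 differed by -0.24 in both comparisons (limma adjusted p = 0.313 and 0.395). The probe set of Rps27 was much dimmer, with a mean of 5.46 (percentile 49.1) against 9.56 for Rps27l. The 5 members under the median of signal, Rps27 among them, had medians of 0.02 and -0.24. The part of brightness in this contrast was not tested. Rpl22l1 differed by -1.22 at 8 weeks and -1.48 at 16 weeks against 4 weeks (limma adjusted p = 0.0653 and 0.0513), and its partner Rpl22 by -0.92 and -1.36 (adjusted p = 0.142 and 0.0711). Rpl7l1 differed by -0.61 and -0.84 and its partner Rpl7 by -1.53 and -1.52, none of which passed. The muscle form Rpl3l stayed between 4.38 and 5.53 and the testis form Rpl39l between 3.10 and 4.17, with differences from 4 to 16 weeks of 0.02 and 0.06. Of 10 skeletal muscle genes, Ckm (5.19 to 6.41), Tnni2 (4.89 to 6.26) and Mb (up to 6.09) had the highest signals.

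Several members serve as reference genes in quantitative PCR, and here they varied between mice. Of 8 such genes 7 were measured, Rplp0, Rpl13a, Rpl19, Rps18, Rpl4, Rps29 and Rpl27, and 0 passed a test in any of the 4 comparisons by limma. Their medians were -1.02 from 4 to 8 weeks, 0.65 from 8 to 12, -1.03 from 12 to 16 and -1.30 from 4 to 16 weeks. The SD between mice of an age was 1.00 for Rplp0, 0.785 for Rpl4, 0.781 for Rps18, 0.774 for Rpl19, 0.727 for Rpl13a, 0.707 for Rpl27 and 0.639 for Rps29. Each of these lay above the 94th percentile of the SD of all genes. Against genes of like mean signal the percentiles were lower for most, 58.3 for Rpl4, 61.8 for Rpl19, 70.9 for Rpl27, 85.2 for Rps18 and 96.4 for Rplp0. Rps29 lay at 33.3 with 3 like genes, and Rpl13a at 100 with 6. With the trend on mean signal removed, the SD was 0.597 for Rplp0, 0.402 for Rpl19, 0.354 for Rpl4, 0.344 for Rpl27, 0.295 for Rps29, 0.235 for Rps18 and 0.201 for Rpl13a.

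The same held for most members. The SD between mice of an age had a median of 0.730 over the 48 genes, and 34 of them lay above the 95th percentile of all genes. Against genes of like mean signal the median member lay at the 77.0th percentile, from as few as 3 such genes for the brightest. The widest after Rplp2 were Rps9 (1.11), Rps10 (1.08), Rplp0 and Rps15 (0.993), and the narrowest were the dim Rpl3l (0.262), Rps27 (0.262), Rpl39l (0.284), Rps16 (0.289) and Rpl14 (0.355). At 8 weeks Rps15 ran from 8.54 to 12.3 over the 5 mice. Removal of the trend on mean signal lowered the SD in 45 of 48 genes, to a median of 0.343. Rpl27a, named after its values were seen, was among the 3 whose SD grew, to 0.811, with 6.48 in replicate 5 at 4 weeks and 10.3 in replicate 2 at 12 weeks.

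**Figure D5:**
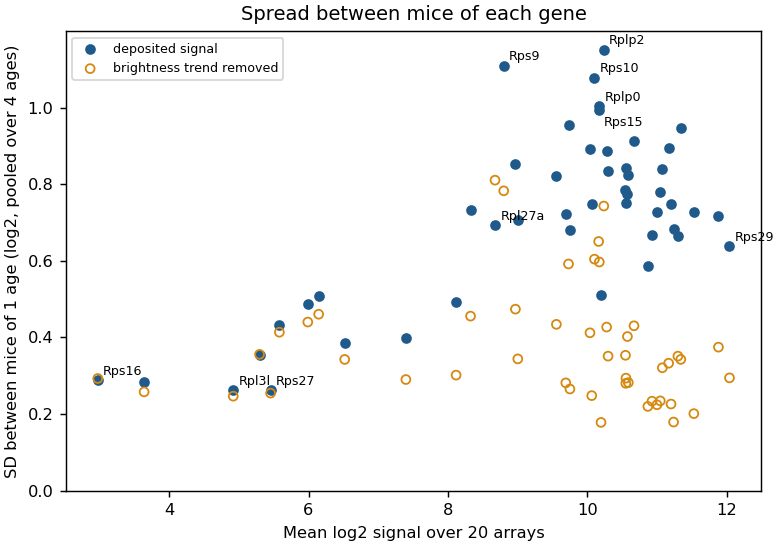
SD of log2 signal between mice of an age, pooled over the 4 ages, against mean log2 signal for each of the 48 genes. Filled points are deposited signals and open points signals with the brightness trend of each array removed; most bright genes come down when it is removed, Rps9 from 1.11 to 0.783, while Rpl27a rises from 0.693 to 0.811.

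The probe sets of a gene did not always move together. Of the 48 members, 24 had more than 1 probe set, and in 8 of these the probe sets had differences of both signs from 4 to 8 weeks, in 11 from 8 to 12, in 7 from 12 to 16 and in 8 from 4 to 16 weeks. None had probe sets called in opposite directions, while 5 probe sets of members were called from 4 to 8 weeks, 3 from 4 to 16 weeks and 0 in the other periods. The 3 probe sets of Rps27l were called from 4 to 16 weeks, with differences of -1.92 to -2.10, and 2 of them from 4 to 8 weeks. All 3 of Rpl7 were negative from 4 to 8 weeks, from -1.08 to -2.03, with 1 called. In Rps3, named after its values were seen, a probe set fainter than the one used was called higher from 4 to 8 weeks, by 1.00, while the one used differed by -1.08.

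On the deposited scale, other genes of the translation machinery were lower too where any passed. Of 20 measured TOP and elongation genes, 7 (35%) were lower from 4 to 8 weeks and 5 (25%) from 4 to 16, beside 4.13% and 3.12% of all genes. From 8 to 12 and 12 to 16 weeks 0 were lower, and the medians of the 4 comparisons were -1.07, 0.85, -0.73 and -1.14. Relative to genes of like mean signal 5 were lower from 4 to 8 weeks and 5 from 4 to 16, beside 5.07% and 3.01%. Naca, a subunit of the complex that binds nascent chains, and Npm1, a chaperone of ribosome assembly, had changes of -2.02 and -1.68 from 4 to 8 weeks (limma adjusted p = 0.0265 and 0.0273). Eif3m, part of the initiation factor that binds the small subunit, fell by 1.77 (adjusted p = 0.0173). Of 26 initiation factors, 3 (11.5%), 0, 1 (3.85%) and 4 (15.4%) were lower in the 4 comparisons, beside 4.13%, 0%, 0.187% and 3.12% of all genes. Relative to like genes these counts were 4, 0, 0 and 4. Eif2s2, the beta subunit of the factor that brings the initiator tRNA, had changes of -1.93 at 8 weeks and -2.02 at 16 weeks against 4 weeks (limma adjusted p = 0.0100 and 0.00427). Eif4g2 fell by 1.25 from 12 to 16 weeks (adjusted p = 0.0231). Relative to genes of like mean signal Eif4g2 differed by -0.06 (limma adjusted p = 0.929). On that scale Eif2s2 differed by -1.45 and -1.41 (adjusted p = 0.00029 and 0.00022). Without the 5 narrow arrays 0.0165%, 0% and 0.0605% of all genes passed from 4 to 8, 12 to 16 and 4 to 16 weeks. None of these lists held a higher gene in any of the 4 comparisons.

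Ribosome biogenesis and the control of ribosomal protein synthesis were examined next. Of 51 biogenesis genes, 2 (3.92%), 0, 0 and 2 (3.92%) were lower, beside 4.13% and 3.12% of all genes at 8 and 16 against 4 weeks, with medians of -0.27, 0.22, -0.27 and -0.28. Ncl, the nucleolar protein nucleolin, and Rrn3, an initiation factor of RNA polymerase I, had changes of -1.81 and -1.12 from 4 to 8 weeks (limma adjusted p = 0.0277 and 0.0359). Relative to like genes 4 biogenesis genes were lower from 4 to 8 weeks, and 2 were lower and 1 higher from 4 to 16. All genes had 5.07% lower from 4 to 8 weeks, and 3.01% lower and 1.34% higher from 4 to 16. Of 17 measured genes of the mTOR, Myc and p53 pathways, 2 (11.8%) were lower from 4 to 8 weeks and 2 (11.8%) from 4 to 16 weeks, in both cases Rheb, the GTPase that activates mTOR (-1.16 and -1.17), and Larp4 (-0.99 and -1.02). Relative to like genes Rheb passed from 4 to 8 weeks but not from 4 to 16 (limma adjusted p = 0.0440 and 0.0776). Of 76 mitochondrial ribosomal proteins, which form a separate ribosome, 7 (9.21%), 0, 0 and 6 (7.89%) were lower, with medians of -0.52, 0.29, -0.34 and -0.51. Relative to like genes 10 of the 76 were lower and 2 higher from 4 to 8 weeks, beside 5.07% and 2.08% of all genes. From 4 to 16 weeks 6 were lower and 0 higher on that scale, beside 3.01% and 1.34%. Mrpl42 and Mrpl24 had changes of -1.49 and -1.43 from 4 to 8 weeks (limma adjusted p = 0.0229 and 0.0314). Of the ribosomal proteins with other names, Fau alone was measured, and it differed by -0.69, 0.50, -0.93 and -1.13, with 0 calls.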

How the data were processed

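Total RNA of the salivary glands of 20 mice was hybridized to Affymetrix arrays, 1 array per mouse. The authors deposited log2 signals of 45101 probe sets after background correction, quantile normalization and summary by RMA in Expression Console, which makes the distributions of probe values equal between arrays but not those of the summarized genes. No further normalization was applied. The platform annotation gave a single gene symbol for 34958 probe sets, several for 932 and no entry for 9211, and gene IDs of 34754 were found in the RefSeq table. The probe set of highest mean signal stood for each of 18194 genes. No other column of the files was used.

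Differences between ages were tested over all 20 arrays by limma (version 3.58.1, R version 4.3.3), with age as a factor and Benjamini-Hochberg adjustment over all genes at 0.05. Calls relative to genes of like mean signal came from the same fit after a lowess trend (span 0.3, or 0.6 for the wider trend) of each array was subtracted. Like genes lay within 0.25 log2 of a member, and differences minus these are a separate measure. With the trend subtracted, the other 153 genes in the top 1% of mean signal kept an offset. Their median difference was 0.15 from 4 to 8 weeks, -0.02 from 8 to 12, 0.15 from 12 to 16 and 0.18 from 4 to 16. Steps were tested on simulated data. Members, lists and tests were chosen with earlier results of these data known, so p-values are no independent evidence. Comparisons that share an age share its mice. Members named were those called, the 5 brightest and dimmest, the 5 widest and narrowest between mice, and the paralogs, reference genes, stalk proteins, Rpsa and Rps6. From other lists, genes were named out of the 3 called of largest change in each comparison, not all of them. Mrpl17, Mrpl36, Nop16, Eif3h, Eif4a2, Eif2a and Eif5a were also among these, all lower, and their values are not given. Alternatives were scaling, choice of probe set, a filter at the 40th percentile, variance models, array weights, the array SD as a covariate, a block of replicate numbers, the 2 ages alone and each mouse left out. A fit without the 5 arrays whose SD was under 1.5 was added after seeing the data.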

Additional observations from a re-analysis of the deposited data

Results flagged for a closer look

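Of 128 groups of 5 mice examined, 2 had a mouse set apart from the others by the gap test of Dixon, and chance alone flags about 1 in 20 groups. Rpl3l at 16 weeks had its highest value, 5.17, in replicate 4, against 4.82 to 4.92 in the other mice. Rps6 at 8 weeks had its highest value, 7.17, in replicate 1, against 5.73 to 6.03 in the others. The values of both genes are low among the members, and neither passed a test in any comparison.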

How the results depend on the processing

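From 4 to 8 weeks the count of members called was 1, beside 7.39% of all genes. It was 2 with median centring (8.4% of all genes), the mean of probe sets (8%), no _x_at and _s_at probe sets (8.84%) or the filter on dim genes (10.2%). With cyclic loess it was 6 (2 higher, 4 lower), beside 7.16%. It was 0 with the replicate block (1.35%), the 2 ages alone (0.011%), array weights (1.15%), the array SD as a covariate (0.0879%) or without the 5 narrow arrays (0.0165%). Leaving out each mouse gave 0 to 9, the 9 beside 13.6%. From 12 to 16 weeks the count of 0 (0.192% of all genes) became 21 with array weights (6.4%). It was 0 to 25 with each mouse left out, the 25 beside 5.69%. From 4 to 16 weeks the count of 1 (3.63% of all genes) became 4 with median centring (4.57%) and 3 without _x_at and _s_at probe sets (4.33%). It was 5 with the filter (7.25%) and 20 with array weights (7.63%). The count was 0 with the block (1.44%), the 2 ages alone (0.412%), the covariate (0.813%) or without the narrow arrays (0.0605%). With each mouse left out it ran from 0 to 37, the 37 beside 16.5%. From 8 to 12 weeks the count was 0 throughout, mice left out included. The cause was not tested.

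Median differences reversed with the array SD as a covariate, to 0.14 from 4 to 8 weeks and -0.11 from 8 to 12. From 12 to 16 weeks the median of -1.01 was -0.012 with cyclic loess, -0.28 with the covariate and -0.032 without the narrow arrays, and from 4 to 16 weeks the median of -1.11 was -0.19, -0.19 and -0.22. With each mouse left out they ran from -0.99 to -0.49, 0.39 to 0.92, -1.36 to -0.73 and -1.46 to -0.84. The cause was not tested.

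Relative to like genes, the 6 calls from 4 to 8 weeks were 3 with the replicate block, 2 with array weights and 0 with the 2 ages alone, the covariate or without the narrow arrays (0 to 9 with mice left out). From 12 to 16 weeks array weights gave 2. From 4 to 16 weeks 2 were called with the mean of probe sets, the filter or the 2 ages alone, 3 with array weights, and 0 with the covariate or without the narrow arrays (0 to 6 with mice left out). Counts from 8 to 12 and 12 to 16 weeks stayed at 0 with each mouse left out. The share of all genes on this scale was counted in the main fit alone, so the other counts stand without it. The members minus like genes had medians from 4 to 8 weeks of -0.077 with the mean of probe sets, 0.00033 with the covariate, which is reversed, and -0.0396 without the narrow arrays. From 8 to 12 weeks the covariate gave -0.16 and the fit without the narrow arrays -0.092, and from 12 to 16 weeks they gave 0.021 and 0.097, all reversed. From 4 to 16 weeks the medians were -0.16, -0.12 and -0.13. With each mouse left out they ran from -0.52 to -0.18, 0.071 to 0.31, -0.29 to -0.06 and -0.50 to -0.28. The cause was not tested.

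Replicate numbers shared no animal. Deviations of same-numbered mice correlated from -0.567 to 0.583, above 0.1 in 8 of 30 pairs, and 2 of 20 arrays correlated best with their own number.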

Other observations

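The 110 probe sets that share a ribosomal protein symbol with other symbols were not used as members. Their mean signals ran from 2.34 to 12.0 with a median of 9.96. Their median differences were -0.66 from 4 to 8 weeks, 0.62 from 8 to 12 and -0.97 from 12 to 16 weeks, and 0 of them were higher at an adjusted p under 0.05 from limma in any of these periods. From 4 to 8 weeks 3 were lower, and 98 of 110 had a negative difference.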
